A study of Caenorhabditis elegans with 4 samples.

Results

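Solitary ELT-3 peaks are places where ELT-3 was found on the genome of fed L1 larvae of Caenorhabditis elegans with no other peak nearby. They were chosen by measured positions and widths: a peak under 1300 bp wide whose nearest other peak midpoint on the same chromosome was more than 20000 bp away. This rule picked 519 of the 5338 peaks of the combined list, or 9.72%. A further 8 peaks met the distance limit but were 1300 bp wide or wider, so that 527 peaks met the distance limit alone. Of the 4819 peaks that are not solitary, 4547 were under 1300 bp wide, and these are the fairer comparison for width and strength.

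ELT-3 is a GATA-type zinc finger transcription factor made mainly in the hypodermis, the epidermal tissue that secretes the cuticle of the worm. Such factors bind short DNA motifs with the core GATA, and ELT-3 is known for acting late in epidermal differentiation, downstream of other GATA factors. The autosomes of this worm have gene-rich central regions and flanking arms with fewer genes, more repeats and more recombination, whereas the X chromosome is more even along its length. Genomic binding of a transcription factor is often crowded, with many sites close together; solitary peaks are the opposite case.

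All libraries came from hermaphrodites of strain OP75, whose genotype is unc-119 (ed3) III with the integrated transgene wgIs75, which carries elt-3::TY1::EGFP::FLAG and unc-119 (+). The labels list no mutation of the gene elt-3 itself. Chromatin was cross-linked with 2% formaldehyde after growth at 20 °C, and ELT-3 was precipitated through its EGFP tag with a goat antiserum in 2 ChIP libraries, each with an input DNA library of the same strain, 4 libraries in all. The transgene was made by bombardment and is 1 line, and the peaks describe the tagged protein in whole larvae, not in a sorted tissue. The authors' comparison of ChIP with input is present as 1 list with a position and a q-value per peak, in WormBase WS180 coordinates. Below, a stronger peak is one with a lower q-value, and no value for the amount of bound protein is given. There are no values per library, so read depth and the spread between replicates are unknown, and every comparison below is a description without a test. The 95% intervals, exact binomial for shares and from order statistics for medians, cover counting over peaks only, and neighbouring peaks are not independent. No peak was assigned to a gene, and sequence was not analysed here, because no genome of this build was used.

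Solitary peaks lay on all 6 chromosomes, and per length they were fewest on III. Chromosome III held 4.07 solitary peaks per Mb, and the other chromosomes held between 5.09 per Mb, on X, and 5.78 per Mb, on I. For all peaks the sparsest chromosome was V, with 41.7 per Mb, and III was among the densest, with 61.6 per Mb. Chromosome V held 115 solitary peaks, IV held 92, X held 90, I held 87, II held 79 and III held 56. Chromosome I was denser still, with 63.1 peaks per Mb, and had the most solitary peaks per Mb. Position was used by the rule, which ties the share of solitary peaks to the spacing of all peaks. Whether peak density accounts for the differences between chromosomes was not tested.

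Chromosomes V and III stood at the opposite ends. On V, 13.2% of the peaks were solitary (95% interval 11.0% to 15.6%), and V held 22.2% of the solitary peaks (18.7% to 26.0%) against 15.7% of all other peaks and 20.9% of the length. On III, 6.60% of the peaks were solitary (5.02% to 8.48%), and III held 10.8% of the solitary peaks (8.25% to 13.8%) against 16.5% of all other peaks and 13.7% of the length. On X the share of solitary peaks was 10.8% (8.77% to 13.1%). X held 17.3% of the solitary peaks (14.2% to 20.9%), close to its 17.7% of the length, and 15.4% of all other peaks. Chromosomes I, II and IV lay close together, with 9.16%, 9.16% and 9.47% of their peaks solitary. The intervals of V and III do not overlap each other, and that of X overlaps those of the other chromosomes except III.

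**Figure D1:**
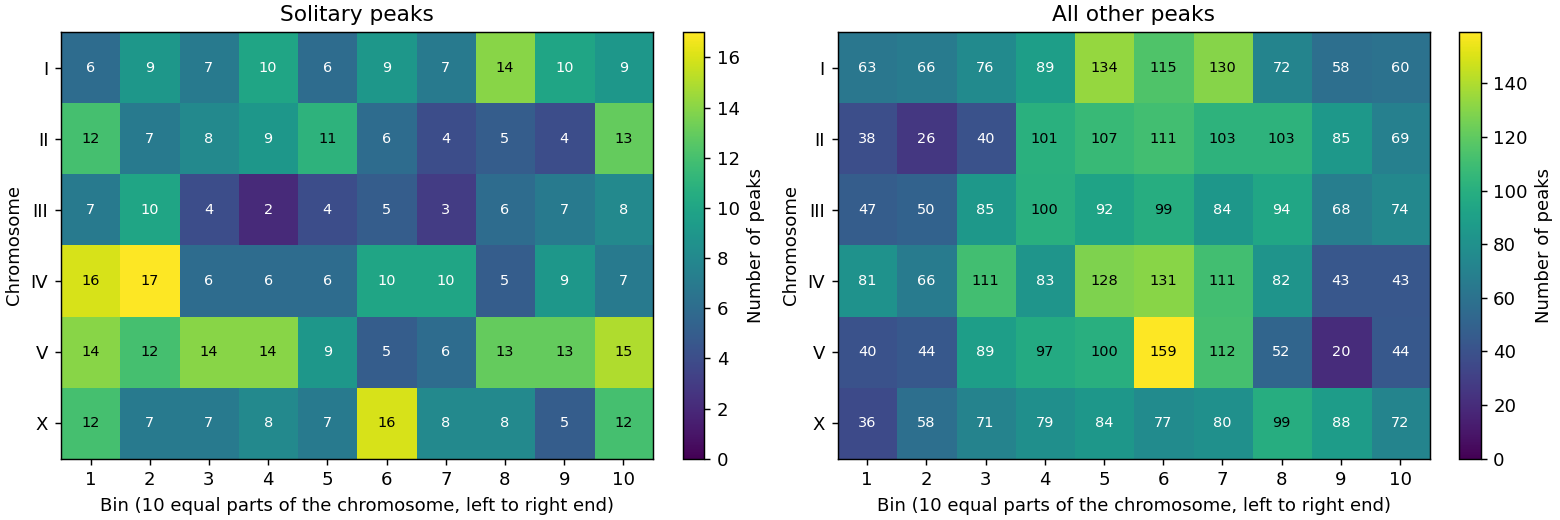
Number of solitary peaks (left) and of all other peaks (right) in each of 10 equal bins of the length of the 6 chromosomes, from the left to the right end; each panel has its own colour scale, and the number is printed in each cell. Solitary peaks reach 17 in the second bin of chromosome IV and 16 in the sixth bin of X, while the other peaks reach 159 in the sixth bin of chromosome V.

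On the autosomes the solitary peaks lay more often in the outer parts. With each chromosome divided into left, middle and right sections of equal length, the middle section of the autosomes held 121 of 429 solitary peaks, or 28.2% (95% interval 24.0% to 32.7%), below its 33.3% of the length, whereas it held 44.9% of all other autosomal peaks. The left and right outer sections held 159 and 149 solitary peaks. Counted per length, the middle section had 4.40 solitary peaks per Mb and the outer sections 5.60 per Mb, while for all peaks the order was the opposite, with 71.0 per Mb in the middle and 46.4 per Mb in the outer sections. Thus 6.20% of the peaks in the middle of the autosomes were solitary (5.17% to 7.37%) and 12.1% of those in the outer sections (10.8% to 13.4%).

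The central share of the solitary peaks was below that of all other peaks on each of the 5 autosomes. It was 21.4% against 39.3% on III, 26.1% against 51.3% on V, 29.9% against 46.3% on I, 30.4% against 43.0% on IV and 31.6% against 45.0% on II. The right section of V had the highest share of solitary peaks, with 42 of its 190 peaks, or 22.1% (16.4% to 28.7%), and the middle section of III had the lowest, with 12 of 324 peaks, or 3.70% (1.93% to 6.38%). On the other arms the sides differed in order: II had 17.1% of its peaks solitary in the left section and 7.74% in the right, whereas I had 9.09% in the left and 14.2% in the right.

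Over all its solitary peaks, X did not show this layout. Its middle section held 33 of 90 solitary peaks, or 36.7% (26.8% to 47.5%), next to 36.6% of the other peaks of X. That interval is wide and also holds the 28.2% of the autosomal solitary peaks. The shares of peaks that were solitary were 12.2% in the left section, 10.8% in the middle and 9.74% in the right, with intervals that overlap. Among the solitary peaks with a q-value below 1e-05, the central share was 27.5% of 40 peaks on X and 29.7% of 182 on the autosomes, against 37.0% and 43.9% of all remaining peaks, weaker solitary peaks included. At this limit the central share on X thus lay below that of the remaining peaks as well, though inside the interval given above for all solitary peaks of X.

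The share of solitary peaks followed the local density of ELT-3 peaks. Across the 18 chromosome sections, Spearman's coefficient between all peaks per Mb and the percentage of solitary peaks was -0.93, a description only, since the rule ties one to the other and all sections come from 1 list. Solitary peaks per Mb ran from 2.61 in the middle of III to 7.37 in the right section of I.

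Within classes of windows with a like number of peaks, the shares of solitary peaks in central and outer autosomal parts had overlapping intervals. In complete 1 Mb windows with 40 to 54 peaks, 12.4% of 178 peaks in the middle sections of the autosomes were solitary (7.91% to 18.1%), next to 12.1% of 874 peaks in the outer sections (10.04% to 14.5%). In windows with 55 to 69 peaks the values were 7.49% (5.51% to 9.89%) in the middle and 8.45% (6.67% to 10.5%) in the outer sections, and with 70 peaks or more they were 4.61% (3.48% to 5.97%) and 6.27% (3.82% to 9.62%). Windows with fewer than 40 peaks held autosomal peaks of the outer sections only, and 23.5% of these were solitary (19.5% to 27.9%). For X the value was 22.9% in such windows (14.4% to 33.4%) and 9.79% (7.38% to 12.7%) in windows with 40 to 54 peaks, where the autosomes had 12.2%. In the latter class, X had 12.3% (8.13% to 17.6%) in its middle section and 8.18% (5.41% to 11.8%) in its outer sections. The intervals overlap within each class, which does not show that the shares are equal. Windows were classed by the same peaks that the rule uses, so the rule ties the share to the class. The middle sections with 40 to 54 peaks and the outer sections with 70 or more each rest on 4 autosomal windows. Whether peak density accounts for the layout of the autosomes was not tested.

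**Figure D2:**
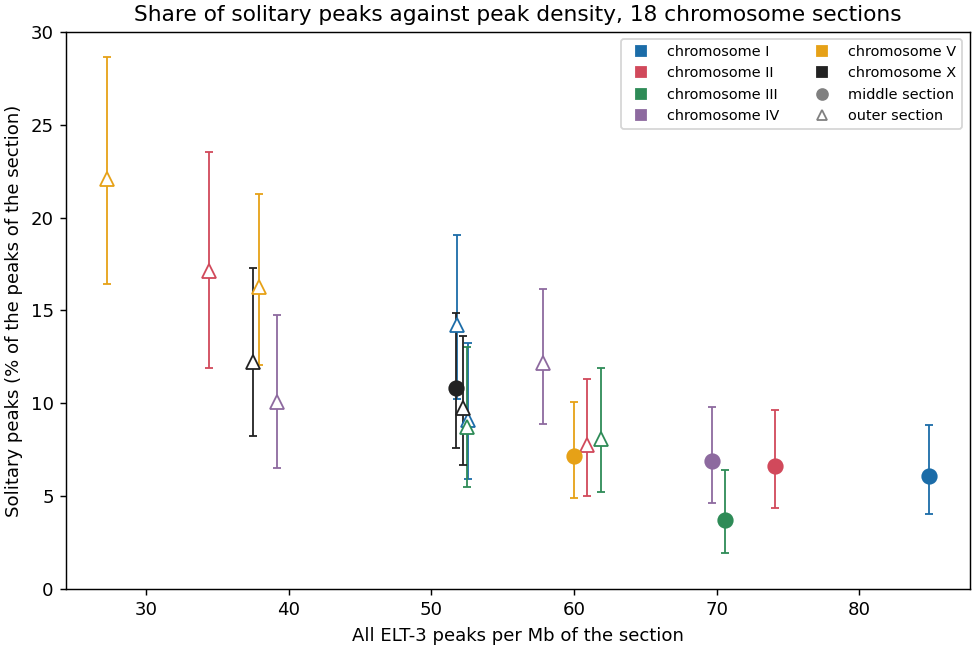
Share of peaks that are solitary (vertical axis, %, bars are exact 95% binomial intervals) against the number of all ELT-3 peaks per Mb (horizontal axis) in the 18 chromosome sections; filled circles are middle sections, open triangles outer sections, colours are chromosomes. The share runs from 22.1% in the right section of V, the sparsest, to 3.70% in the middle section of III.

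The distance from a solitary peak to its nearer neighbour had a median of 29.9 kb, with 50% of the values between 24.0 and 40.7 kb, against a median of 2.60 kb for all other peaks. It exceeded 50 kb for 66 solitary peaks and 100 kb for 7. For the 512 solitary peaks with a neighbour on both sides, the farther neighbour lay at a median of 54.1 kb, and it was more than 2 times as far as the nearer one for 167 of them. The stretches between solitary peaks and their neighbours together covered 44.1 Mb, or 44.1% of the 100.1 Mb between the first and last peak midpoints of the chromosomes. A minimum for this length is set by the rule itself.

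The most isolated peak with neighbours on both sides lay on chromosome V at 17246517 to 17246900, with 280.9 kb to the left and 467.8 kb to the right. It was 384 bp wide with a q-value of 6.24e-08. Next came a peak in the opposite arm of V at 2909614 to 2910038, with 215.2 kb and 283.4 kb on its sides (425 bp, q-value 1.80e-07). These regions of V held 1 peak in 748.7 kb and 1 peak in 498.6 kb. The largest distance of all, 301.1 kb, belonged to the first peak of X, at 11113 to 11567 (455 bp, q-value 1.23e-05), which has a neighbour on 1 side only.

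Isolation did not require a strong or wide peak. The peak on II at 2243913 to 2243927 lay 137.5 kb from its nearest neighbour and was 15 bp wide with a q-value of 0.00322, and the peak on V at 20265196 to 20265506 lay 123.9 kb away with a q-value of 0.000569. On the other chromosomes the most isolated peaks were those on I at 853179 to 853537 (86.2 kb, q-value 0.000147), on III at 10006900 to 10007280 (79.5 kb, q-value 3.17e-13) and on IV at 14181677 to 14181953 (91.9 kb, q-value 0.00028). Among the solitary peaks, Spearman's coefficient of the distance to the nearer neighbour was -0.03 with the negative log10 of the q-value and -0.09 with width (n = 519 peaks of 1 list, a description).

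**Figure D3:**
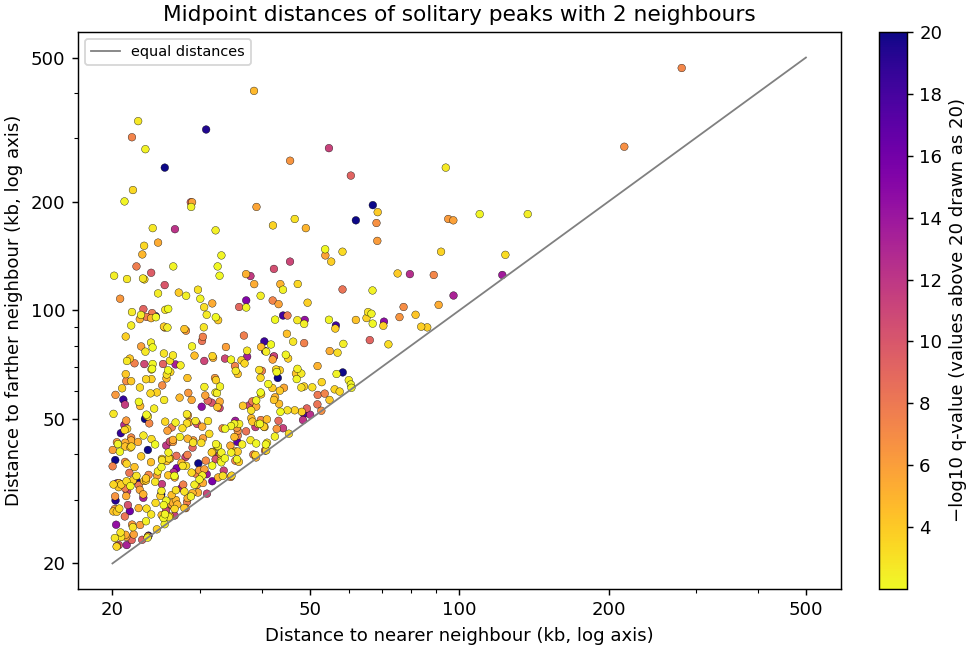
Distance from each of the 512 solitary peaks with neighbours on both sides to the nearer (horizontal, kb, log axis) and the farther (vertical, kb, log axis) peak midpoint; colour is the negative log10 of the q-value, and the grey line marks equal distances. The median distance to the nearer neighbour is 29.9 kb, and weak and strong peaks are intermixed.

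Solitary peaks often followed one another along the chromosome. They formed 320 runs, of which 199 were single peaks and 121 held 2 or more solitary peaks with no other peak between them, so that 320 of the 519 peaks lay beside another solitary peak. For 202 of the 519, or 38.9%, the nearest neighbour was itself solitary. The rule favours such runs, because a peak beside a solitary peak already clears the distance on that side. Of all 5332 gaps between neighbouring midpoints, 1554 were over 20000 bp, and 832 of these lay next to a solitary peak. Whether runs were more frequent than the rule alone would give was not tested. The longest run, 8 peaks in 516.9 kb, lay in the right arm of V from 18098055 to 18614932.

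This run mixed peaks with low and high q-values. It held the strongest solitary peak of V, at 18345978 to 18346502 (525 bp, q-value 1.45e-32), which had 248.2 kb without a peak on its left. The other 7 peaks ranged from a q-value of 3.40e-08, at 18569336 to 18569854, to 0.00356, at 18461338 to 18461596, and the first of them, at 18098055 to 18098071, was 17 bp wide. The second longest run, 7 peaks on I from 10830780 to 11127597, held weak peaks only, with q-values from 0.000158 to 0.0065. The 5 peaks on IV from 15617601 to 15901448 had q-values from 8.11e-10 to 1.27e-06.

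By 1 Mb windows, the fullest was on IV from 1 to 2 Mb, with 13 solitary peaks among 60 peaks. Their widths ran from 95 to 791 bp, and their q-values from 3.55e-14, at 1209362 to 1209715, to 0.00402, with 7 of the 13 below 1e-05. The median of the 97 complete windows was 5 solitary peaks, and 1 window held none. In the window of V from 18 to 19 Mb, 11 of 18 peaks were solitary, or 61.1%.

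The solitary peaks were slightly narrower than other peaks under the same width limit. Their median width was 387 bp (95% interval 370 to 401 bp), against 415 bp (408 to 421 bp) for the 4547 other peaks under 1300 bp and 429 bp for all other peaks, among which widths are not limited. The 25% point was alike, at 318.5 bp for solitary peaks and 317 bp for other peaks under 1300 bp. The 10% point was higher for solitary peaks, at 264 bp against 243 bp. In the upper part the solitary peaks were narrower, with the 75% point at 538.5 bp against 589 bp and the 90% point at 742.6 bp against 818 bp. Peaks of 700 bp or more made up 12.5% of the solitary peaks (9.80% to 15.7%) and 16.5% of the other peaks under 1300 bp (15.4% to 17.6%). Peaks under 100 bp made up 2.31% and 2.49%.

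The order in width was the same on each chromosome. The median of solitary peaks against other peaks under 1300 bp was 364 and 395 bp on I, 404 and 409 bp on II, 379 and 400 bp on III, 369.5 and 398.5 bp on IV, 367 and 421 bp on V and 453.5 and 488.5 bp on X. The gap was largest on V, where the interval of the solitary median, 350 to 416 bp, lay below the median of the other peaks. On each other chromosome that interval held the median of the other peaks, as on I with 343 to 401 bp and on X with 396 to 537 bp. The gap was smallest on II, with an interval of 360 to 465 bp. Of the 18 chromosome sections, 16 had the lower median among solitary peaks. The exceptions were the left section of X, with 568 against 531 bp, and the middle section of II, with 412 against 406 bp.

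The extremes of width were unlike each other in strength. The widest solitary peak, of 1280 bp, lay on IV at 11856355 to 11857634 and was among the weakest of the whole list with a q-value of 0.00986, rank 5335. The second, of 1256 bp, on X at 7305549 to 7306804, had a q-value of 4.03e-25, and the third, on IV at 11635584 to 11636806 (1223 bp), one of 9.92e-10. The 3 narrowest, of 5, 7 and 8 bp, lay on V at 5952599 to 5952603, on IV at 9825539 to 9825545 and on V at 16069129 to 16069136, and their q-values were 0.00589, 0.00926 and 0.0086.

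**Figure D4:**
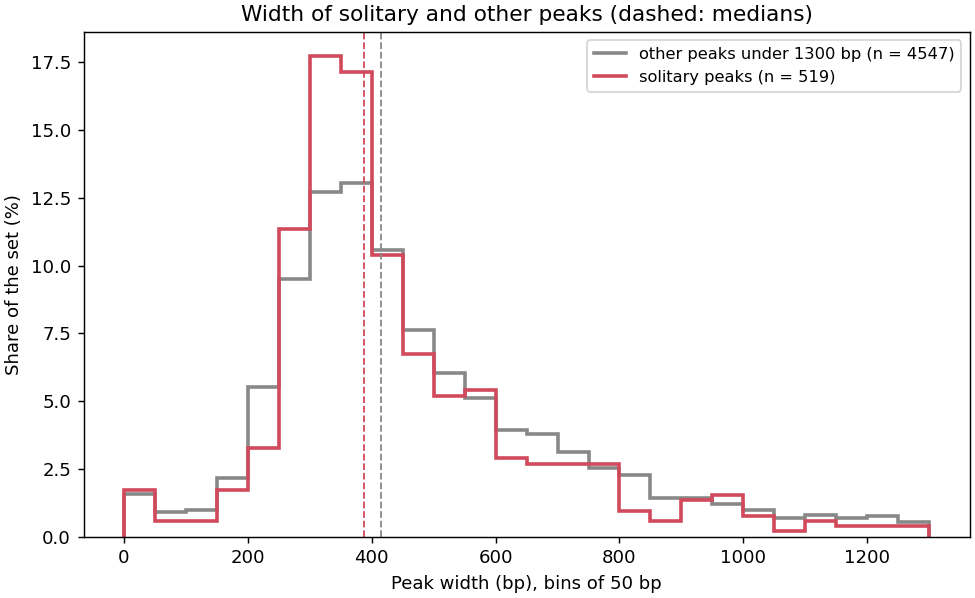
Share of each set (vertical, %) by peak width (horizontal, bins of 50 bp) for the 519 solitary peaks (red) and the 4547 other peaks under 1300 bp (grey), with dashed lines at the medians of 387 and 415 bp. The solitary peaks are more concentrated between 250 and 400 bp, and fewer of them are 700 bp or wider.

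Over all chromosomes, low q-values were less frequent among solitary peaks than among the other peaks under 1300 bp. A q-value below 1e-05 was held by 222 of the 519, or 42.8% (38.5% to 47.2%), against 51.2% of the whole list and 49.7% of the other peaks under 1300 bp (48.2% to 51.1%). Below 1e-20 there were 15 solitary peaks, or 2.89% (1.63% to 4.72%), against 9.25% of the whole list and 7.30% of the other peaks under 1300 bp (6.56% to 8.10%). The median q-value was 4.23e-05 for solitary peaks (1.63e-05 to 9.78e-05) and 1.12e-05 for other peaks under 1300 bp (7.93e-06 to 1.57e-05). Of the solitary peaks, 255 were stronger than their nearest neighbour, or 49.1%.

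The median differed most on chromosomes V and I. On V the median q-value was 0.000315 for solitary peaks and 1.63e-05 for other peaks under 1300 bp, and on I it was 0.000115 and 8.34e-06. On X it was 1.53e-05 and 5.71e-06, and on IV, 1.14e-05 and 9.81e-06. On II and III the order was the opposite, with 4.22e-06 against 1.85e-05 and 7.61e-06 against 1.50e-05. The interval of the solitary median held the median of the other peaks on II, III, IV and X. It did not on V (0.000123 to 0.000653) or on I (1.58e-05 to 0.000322). Of the 18 chromosome sections, 12 had the weaker median among solitary peaks. Without V, the median negative log10 q-value was 4.79 for solitary peaks and 4.999 for other peaks under 1300 bp, against 4.37 and 4.95 on all chromosomes. Without I the solitary median was 4.40.

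Because strength rises with width (wider peaks had lower q-values), strength was also set side by side among peaks of like width, and there the medians lay farthest apart among wider peaks. From 300 to 399 bp, the most common class, the median q-value was 4.23e-05 for 181 solitary peaks and 3.51e-05 for 1172 others. From 400 to 499 bp it was 6.93e-06 for 89 solitary peaks and 4.02e-07 for 827 others, from 500 to 699 bp 4.60e-06 and 4.71e-08, and from 700 to 999 bp 6.49e-07 and 4.29e-09. The intervals of the medians did not overlap from 700 to 999 bp, where they were 3.95e-08 to 1.57e-05 for solitary peaks and 4.03e-10 to 1.96e-08 for the others. From 200 to 299 bp the order was the opposite, with 0.000297 for solitary peaks and 0.000853 for the others, and the intervals overlapped. From 1000 to 1299 bp there were only 14 solitary peaks, with a median q-value of 2.32e-07 against 5.08e-11 and an interval that held that of the other peaks.

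**Figure D5:**
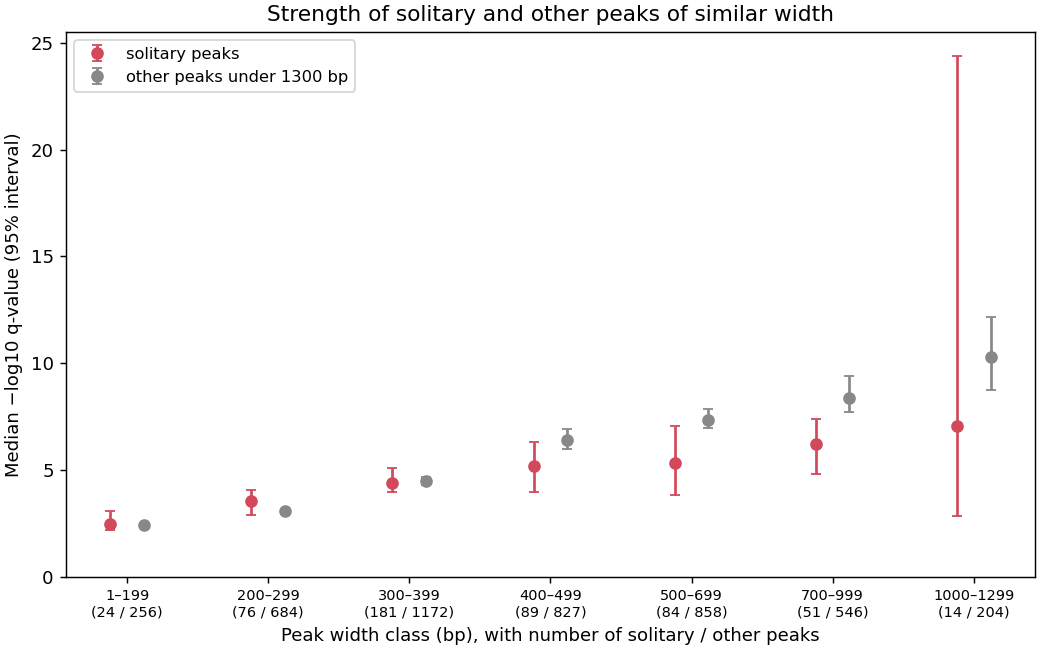
Median negative log10 q-value (vertical, bars are 95% intervals from order statistics) in 7 classes of peak width (horizontal, bp, with the numbers of solitary and other peaks) for solitary peaks (red) and other peaks under 1300 bp (grey). Other peaks gain more strength with width: from 700 to 999 bp the medians are 6.19 for solitary and 8.37 for other peaks, while from 300 to 399 bp they are 4.37 and 4.46.

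Over all peaks of 400 to 1299 bp, the median q-value was 3.08e-06 for 238 solitary peaks (5.12e-07 to 1.28e-05) and 3.05e-08 for 2435 others. The solitary median was the weaker on 5 of 6 chromosomes, most of all on V with 0.000167 against 9.00e-09. It was the stronger on III with 1.54e-08 against 8.16e-08. The interval of the solitary median held the median of the other peaks on I, II, III and X. It did not on V (3.59e-06 to 0.000641) and, narrowly, on IV (1.578e-09 to 1.15e-05 against 1.556e-09). Without V the solitary median was 1.10e-06 against 3.66e-08. The rank correlation (Spearman) of width with the negative log10 q-value was 0.31 among solitary peaks and 0.53 among other peaks under 1300 bp, again a description.

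Weaker wide peaks were not limited to those past 20 kb. Of peaks 400 to 1299 bp wide, those with the nearest midpoint within 2 kb had a median q-value of 6.84e-09, and those with it over 2 and up to 10 kb away one of 6.73e-08. Those between 10 and 20 kb, which are not solitary, had 1.61e-06 (1.33e-07 to 6.78e-06), inside the interval of the solitary peaks. Under 400 bp the medians were 0.000359 within 2 kb (0.000228 to 0.00052), 0.00037 up to 10 kb (0.000255 to 0.000521) and 0.000281 up to 20 kb (0.000146 to 0.000397). Solitary peaks under 400 bp had the lowest median, 0.000123 (6.57e-05 to 0.000233). Its interval overlaps those within 2 kb and from 10 to 20 kb, and lies below that from 2 to 10 kb. Against all other peaks under 400 bp, the solitary median was higher on V (0.000569 against 0.00039), alike on I (0.000188 in both) and lower on the other chromosomes. Within the solitary set, the median q-value was 3.98e-05 from 20 to 30 kb, 6.51e-05 from 30 to 50 kb and 4.93e-05 above 50 kb, with overlapping intervals.

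Several of the strongest solitary peaks lay near chromosome ends. Of the 10 strongest, 4 lay within the outer 5% of the length at either end of their chromosome, as did 72 of all 519 solitary peaks, or 13.9% (11.0% to 17.1%), and 6.97% of the other peaks under 1300 bp (6.25% to 7.75%). Of the 15 solitary peaks below 1e-20, 5 lay there, or 33.3% (11.8% to 61.6%). Of the 332 other peaks under 1300 bp below the same value, 17 lay there, or 5.12% (3.01% to 8.07%). The intervals for the 5 of 15 and for the 4 of 10 (12.2% to 73.8%) both hold the 13.9% of all solitary peaks. Of those 5 peaks, 3 were the first or last of their chromosome, which need to clear the distance on 1 side only. The first place was taken by a peak on III at 14666 to 15708 (1043 bp, q-value 6.83e-75, rank 31 of the list), the first peak of that chromosome, whose next peak lay 25.6 kb away. The second lay on the same arm at 154156 to 154566, only 411 bp wide with a q-value of 1.19e-53 (rank 58), with 67.0 kb free on the left and 195.5 kb on the right. These 2 were the only solitary peaks below 1e-50. The third was on II at 900724 to 901244 (521 bp, q-value 1.40e-46), between gaps of 177.5 and 61.9 kb.

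The other 7 of the 10 strongest lay on I, IV, V and X. The peak on I at 7404671 to 7405466 (796 bp, q-value 1.50e-38) stood near the middle of its chromosome with 58.2 and 67.4 kb free, and the peak on IV at 14414149 to 14414563 (415 bp, q-value 6.25e-38) in the right section. They were followed by the peak on V in the run described above and by the last peak of I, at 15058774 to 15059085, which was 312 bp wide with a q-value of 2.64e-32. On X the strongest was at 2996371 to 2997493 (1123 bp, q-value 5.27e-30), and next came 17138005 to 17138524 (520 bp, q-value 1.92e-29). The tenth was on IV at 7131751 to 7132394 (644 bp, q-value 2.65e-25). Of the 10 strongest, 2 lay in the middle section of their chromosome, where 29.7% of all solitary peaks lay. With 10 peaks, these shares cannot be told apart.

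Of the 12 outermost peaks, 1 at each end of the 6 chromosomes, 7 were solitary, namely the first peaks of III, IV, V and X and the last of I, V and X. These peaks need to clear the distance on 1 side only, so their number is not comparable with the 9.72% of the whole list. Their median q-value was 1.58e-09, and 3 of the 7 were below 1e-20, against 12 of the other 512 solitary peaks, or 2.34%. The last peak of X, at 17684609 to 17685259, had a q-value of 1.27e-21 and lay 40.9 kb from the next, and the first of IV, at 51171 to 51643, one of 1.58e-09 and 49.5 kb. The first peak of V, at 8116 to 9337, was 1222 bp wide with a q-value of 2.27e-05 and lay 96.0 kb from the next. The last of V, at 20899125 to 20899483, was weak, with a q-value of 0.000198. The outermost peaks and the outer 5% were looked at after the strongest peaks had been seen.

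Peaks close to the limits of the rule lay on several chromosomes. Just inside the distance limit lay peaks on I at 10025912 to 10026268 (20018 bp from the nearest midpoint, q-value 3.59e-08) and, on X, at 7264678 to 7265322 (20029.5 bp, q-value 1.16e-06) and farther left at 3932694 to 3932996 (20083.5 bp, q-value 4.38e-05). Just outside lay peaks on III at 4150863 to 4151542 (19960.5 bp, q-value 0.000873) and farther left at 2676092 to 2676504 (19924 bp, q-value 1.93e-13), and on I at 1175758 to 1176051 (19802 bp, q-value 0.000154). The width limit kept out 8 isolated peaks of 1386 to 4179 bp, all with a q-value of 8.23e-10 or lower. The strongest of them, on X at 1503387 to 1505307 (1921 bp, q-value 1.13e-209), ranked 2 in the whole list with 26.2 and 23.5 kb free on its sides, followed by peaks on III at 8443315 to 8447309 (3995 bp, q-value 2.26e-52) and on V at 14684685 to 14688863 (4179 bp, q-value 4.33e-37).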

How the data were processed

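Binding of ELT-3 was measured by ChIP-seq in 2 ChIP and 2 input libraries. The authors deposited 1 combined list of 5338 peaks with a q-value each, and per the file headers positions are on WormBase WS180. PeakSeq is named as the source of each deposited line. The aligner, filters, versions and the way replicates were combined are not given in the sources used here, and depth is unknown. Positions were used as deposited, counted from 1. Width was end minus start plus 1, and chromosome length was taken as the last peak end. The left, middle and right sections are equal parts of that length. Intervals (95%) are exact Clopper-Pearson for shares and order-statistic for medians, for counting error only (Python 3.11.15, scipy 1.17.1). The rule was checked against a brute-force search on a simulated list, with random positions on each chromosome and the deposited widths. The members and the comparisons were chosen with earlier results of these data known. Named peaks were the 10 strongest, the strongest and most isolated of each chromosome, the 5 most isolated, the 3 widest and narrowest, those next to the limits, the 3 strongest of the isolated wide peaks, the longest run and the fullest window; other peaks named, and the comparisons of chromosome ends, of window classes and of strength by distance and width, were chosen after their values were seen. Alternatives were other distances, edge gaps, no width limit, merging, stricter q-values and chromosomes left out. Sequence motifs were not analysed here.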

Additional observations from a re-analysis of the deposited data

How the results depend on the processing

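No paired analysis was possible because values of single libraries are absent from the combined list, and no replicate could be left out. The number of solitary peaks, 519, was 748 with a limit of 15000 bp and 258 with 30000 bp, and 222 of the 519 had a q-value below 1e-05. The central share on autosomes, 28.2%, was 22.5% with a limit of 30000 bp and 33.0% when only the stronger 50% of the list was kept, against 44.4% and 48.3% for all other peaks. With the middle 50% of the chromosome in place of the middle 33.3% it was 43.1% against 64.1%, and on X 50% against 54.8%. The median width, 387 bp, came to 450 bp with the stronger 50% of peaks (others under 1300 bp: 509 bp) and 432.5 bp for members below 1e-05. The median negative log10 q-value, 4.37, was 8.64 (others: 9.87) and 7.78 under the same settings, which by construction keep strong peaks only. The other settings, with the outermost peaks left out among them, gave 501 to 583 solitary peaks. The other shares and medians, also with single chromosomes left out where that was run, stayed within the intervals of the main values (leaving out chromosomes or outermost peaks was chosen after seeing the data), with X at 15.5% to 18.4% of the solitary peaks. Lengths come from the last peaks, and the depth and detection limit of the list are unknown.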
